A study of Homo sapiens with 24 samples.

Results

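Transcripts of 10 genes of the BCL2 family, which sets whether a cell undergoes mitochondrial apoptosis, were followed in AsPC-1 tumors over a 48 h dosing interval of IK-595. The genes were listed by role, with earlier results of these data known. They comprised 5 BH3-only genes (BCL2L11, BMF, BBC3, BIK and PMAIP1), 3 protective genes (BCL2L1, BCL2L2 and MCL1) and 2 pore-forming genes (BAX and BAK1). All 10 were found among the 60230 genes of the deposited tables, and all 10 were among the 18242 genes that passed the filter on low counts. BCL2L11, BMF, BBC3, BIK and PMAIP1 encode BIM, BMF, PUMA, BIK and NOXA, and BCL2L1 and BCL2L2 encode BCL-XL and BCL-w. The counts are per gene, so splice forms with opposite roles, such as the long and short forms of BCL2L1 and MCL1, were not resolved.

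Proteins of the protective class hold BAX and BAK1 in check at the mitochondrial outer membrane. BH3-only proteins bind protective proteins, and some also engage BAX and BAK1 directly, after which these form pores that release cytochrome c. ERK signaling is known to mark BIM protein for degradation, and MEK inhibition is known to raise transcripts of BIM and BMF in several cancer cell types.

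AsPC-1 is a human line of pancreatic ductal adenocarcinoma, grown here as xenografts in mice. IK-595, a molecular glue that holds MEK and RAF together, was given by mouth every other day at 6 mg/kg for 3 doses, and tumors were taken 2, 4, 8, 24 or 48 h after the last dose. Vehicle (5% DMSO and 95% PEG400) was given on the same schedule, and its tumors were taken at 2 h only, so later comparisons with vehicle also differ in the time since dosing. Each of the 6 groups held 4 tumors from 4 animals, 24 in all. The results concern 1 cell line, in tumors that also hold cells of the host. The sources used here give no strain, sex or age for the mice.

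Depth was 10.52 M to 20.64 M counts per tumor. Of the epithelial markers, KRT8, KRT19 and EPCAM were high throughout, with medians over the 24 tumors of 2808, 2357 and 824 TPM, while KRT7 was at 4.46 TPM. Of 9 such markers, 2, 2, 2, 3 and 5 were higher than in vehicle tumors at 2, 4, 8, 24 and 48 h (13.4, 6.74, 20.6, 13.7 and 5.52% of all genes were). Lower were 1, 0, 2, 1 and 0 (13.6, 8.39, 23.7, 13.8 and 4.46%). At 8 h EPCAM and MUC1 were higher and KRT18 and CEACAM6 lower. Of 10 transcripts that follow MAPK signaling, 8, 9, 10, 6 and 2 fell against vehicle at 2, 4, 8, 24 and 48 h and none rose. Some tumors stood apart from their groups. The second 4 h tumor had a summed level of 8 fibroblast and pericyte markers of 9918 TPM, against 357 to 1532 TPM in the other tumors. The first 2 h tumor had the highest sum of adipocyte, muscle and red cell markers, 1405 TPM, against 3.81 to 7.66 TPM in the other 2 h tumors. That sum was also high in 4 h tumor 4 (803 TPM), 8 h tumors 2 (972 TPM) and 4 (303 TPM) and 24 h tumor 4 (1084 TPM), against 10.8 to 122 TPM in vehicle tumors. The first 24 h tumor had 31.4% of its counts on mitochondrial genes, against 12.1 to 14.4% in the other 24 h tumors. Sets of tumors were left out together by a choice made after seeing the data. Without 2 h tumor 1, 4 h tumor 2 and 24 h tumor 1, no call of a member against vehicle changed at 2, 4 or 24 h. Without those 3 tumors, 4 h tumor 4, 8 h tumor 2 and 24 h tumor 4, which leaves 2 tumors each at 4 and 24 h, the BCL2L1 call at 24 h was lost (-0.48, adjusted p = 0.0912) and no other member call against vehicle at 2, 4, 8 or 24 h changed. Of 9 adipocyte, muscle and red cell markers, 6 were tested and PLIN1 was called higher at 8 h (2.28 ± 0.72, adjusted p = 0.0129) and 24 h (2.22 ± 0.71, adjusted p = 0.0243), while ADIPOQ was at 0 in all 24 tumors. Of 8 fibroblast and pericyte markers, COL1A1 and COL1A2 were called higher than in vehicle tumors at 4 h and none was called at another time. Both overlapped vehicle in TPM, with COL1A1 at 980 ± 1658 TPM at 4 h and 121 ± 51 TPM in vehicle tumors (SD). Their highest levels, 3465 TPM for COL1A1 and 3650 TPM for COL1A2, were in 4 h tumor 2, and these calls were not examined without it. The summed level of 6 myeloid markers was 331 to 424 TPM at 2 h and 214 to 309 TPM at 8 h in IK-595 tumors, against 495 to 767 TPM in vehicle tumors. LYZ and CD68 made up most of that sum, with medians over the 24 tumors of 428 and 86.6 TPM. The medians of CSF1R, PTPRC, CD14 and ITGAM were 4.83, 0.78, 1.83 and 1.24 TPM. Counts are of human genes, and whether cells of the line or of the host gave the LYZ and CD68 reads was not tested. At 8 h LYZ (-0.996 ± 0.236, adjusted p = 0.00168) and CD68 (-0.73 ± 0.26, adjusted p = 0.0267) were lower and ITGAM was higher (1.29 ± 0.38, adjusted p = 0.00826), and none of the 6 was called against vehicle at another time. The sum of 5 endothelial markers was 0.405 to 8.71 TPM over all tumors, with PECAM1 at 0 in 17 tumors, EMCN in 22, CDH5 in 1 and neither KDR nor VWF at 0, and none of the 3 tested was called against vehicle. None of 5 lymphocyte markers passed the filter on low counts. The part of host cells in the results was otherwise not tested, and in bulk tumors fewer cells of a type and less RNA per cell cannot be told apart.

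The promoters shown are those of BMF, which had the largest rises, of BCL2L11, the gene of BIM, and of BCL2L1 and PMAIP1, which had the largest falls. Each window runs from 250 bases before to 50 bases after a transcription start in RefSeq, on GRCh38.p14, and is read 5′ to 3′ on the strand of the gene. Capitals mark matches, on either strand, to any of 8 short motifs, given here with the share of the 35116 promoters in the table that hold each. The FOXO letters TGTTTAC were in 3.42% of promoters. The ETS letters CCGGAAG were in 10.3% of promoters and the AP-1 letters TGACTCA in 4.95% of promoters. The E-box CACGTG was in 7.26% of promoters and the GC box GGGCGG in 45% of promoters. The TATA box TATAAA was in 11.5% of promoters. The CRE (TGACGTCA) was in 1.85% and the STAT letters (TTCCNGGAA) in 1.15%. No match here overlapped another. Where RefSeq gave more than 1 start the upstream one is shown, and the BCL2L11 start lies 1536 bases from the 5′ end of the gene in GENCODE. Coordinates are chr15:40108830-40109129 on the minus strand for BMF, chr2:111120664-111120963 on the plus strand for BCL2L11, chr20:31723914-31724213 on the minus strand for BCL2L1 and chr18:59899746-59900045 on the plus strand for PMAIP1.
BMF: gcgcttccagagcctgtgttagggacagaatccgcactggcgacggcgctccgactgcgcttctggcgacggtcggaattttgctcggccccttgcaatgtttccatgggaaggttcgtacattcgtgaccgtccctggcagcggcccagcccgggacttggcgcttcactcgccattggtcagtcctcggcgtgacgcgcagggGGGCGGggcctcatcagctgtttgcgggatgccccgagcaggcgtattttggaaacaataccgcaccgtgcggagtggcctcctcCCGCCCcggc
BCL2L11: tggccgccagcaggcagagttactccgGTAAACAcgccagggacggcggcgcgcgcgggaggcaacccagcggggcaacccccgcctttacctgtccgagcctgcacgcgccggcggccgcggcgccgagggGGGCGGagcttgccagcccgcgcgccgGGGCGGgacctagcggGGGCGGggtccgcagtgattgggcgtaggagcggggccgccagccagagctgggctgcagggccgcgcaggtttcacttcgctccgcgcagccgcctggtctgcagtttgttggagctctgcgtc
BCL2L1: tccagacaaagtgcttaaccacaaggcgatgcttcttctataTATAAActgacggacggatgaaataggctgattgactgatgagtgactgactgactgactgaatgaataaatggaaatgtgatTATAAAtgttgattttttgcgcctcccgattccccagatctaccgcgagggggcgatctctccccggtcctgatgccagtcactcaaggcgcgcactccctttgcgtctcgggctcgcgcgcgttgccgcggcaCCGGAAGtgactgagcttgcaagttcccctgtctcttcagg
PMAIP1: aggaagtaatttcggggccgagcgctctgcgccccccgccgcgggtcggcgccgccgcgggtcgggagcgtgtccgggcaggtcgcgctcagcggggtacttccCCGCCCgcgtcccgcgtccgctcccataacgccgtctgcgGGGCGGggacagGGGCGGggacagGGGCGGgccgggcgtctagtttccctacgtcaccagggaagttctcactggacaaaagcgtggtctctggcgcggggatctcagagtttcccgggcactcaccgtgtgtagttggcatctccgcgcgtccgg
BMF held 2 GC boxes here and BCL2L11 held 3. BCL2L11 also held a FOXO match on the opposite strand whose first base lay at -223 from the start. The BCL2L1 window held an ETS match at 10 and TATA boxes at -208 and -125. PMAIP1 held 4 GC boxes and no match to the other letters. A match describes the sequence and is not a shown binding site. BMF and BCL2L1 had another window each, with no match and with 1 GC box. Of the remaining members, BBC3 held an AP-1 match and an E-box, BAX held 4 E-boxes and 2 GC boxes, and BAK1 held 2 GC boxes. BIK, BCL2L2 and MCL1 had no promoter in the table.

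At 2 h after the last dose, members differed from vehicle in both directions. At 2 h 4 of the 10 members rose (13.4% of all genes tested rose) and 4 fell (13.6% of all genes fell) against vehicle. At 4 h 3 members rose (6.74%) and 4 fell (8.39%), and at 8 h 4 rose (20.6%) and 5 fell (23.7%). At 24 h 2 members rose (13.7%) and 2 fell (13.8%), and at 48 h 1 rose (5.52%) and 1 fell (4.46%). Groups without overlap in TPM were counted as well. Wholly above vehicle were 3 members at 2 h (9.4% of all genes were), 3 members at 4 h (7.37%), 3 members at 8 h (11.4%), 1 member at 24 h (7.73%) and none at 48 h (6.84%). Wholly below vehicle were 4 members at 2 h (22.3% of all genes were), 4 members at 4 h (8.66%), 6 members at 8 h (30.5%), 2 members at 24 h (12.8%) and 1 member at 48 h (10.6%). A change here is an adjusted p under 0.05 from edgeR, and each fold change is on the log2 scale of TMM-scaled counts with its standard error, n = 4 tumors per group. The median log2 fold change of the 10 members was -0.23, -0.26, -0.28, -0.11 and 0.07 at the 5 times, against 0.05, 0.03, 0.07, 0.06 and -0.01 over all genes. The 5 comparisons share the same vehicle tumors. On the TPM scale the median of all genes lay at -0.15, 0.04, -0.19, -0.08 and -0.09 at the same times, so that TPM values at 2 and 8 h sit lower against vehicle than the scaled counts. Mitochondrial genes took 11.8 to 18.3% of counts at 2 h and 18.3 to 23.4% at 8 h, against 8.00 to 10.8% in vehicle tumors, and their part in that offset was not tested.

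**Figure D1:**
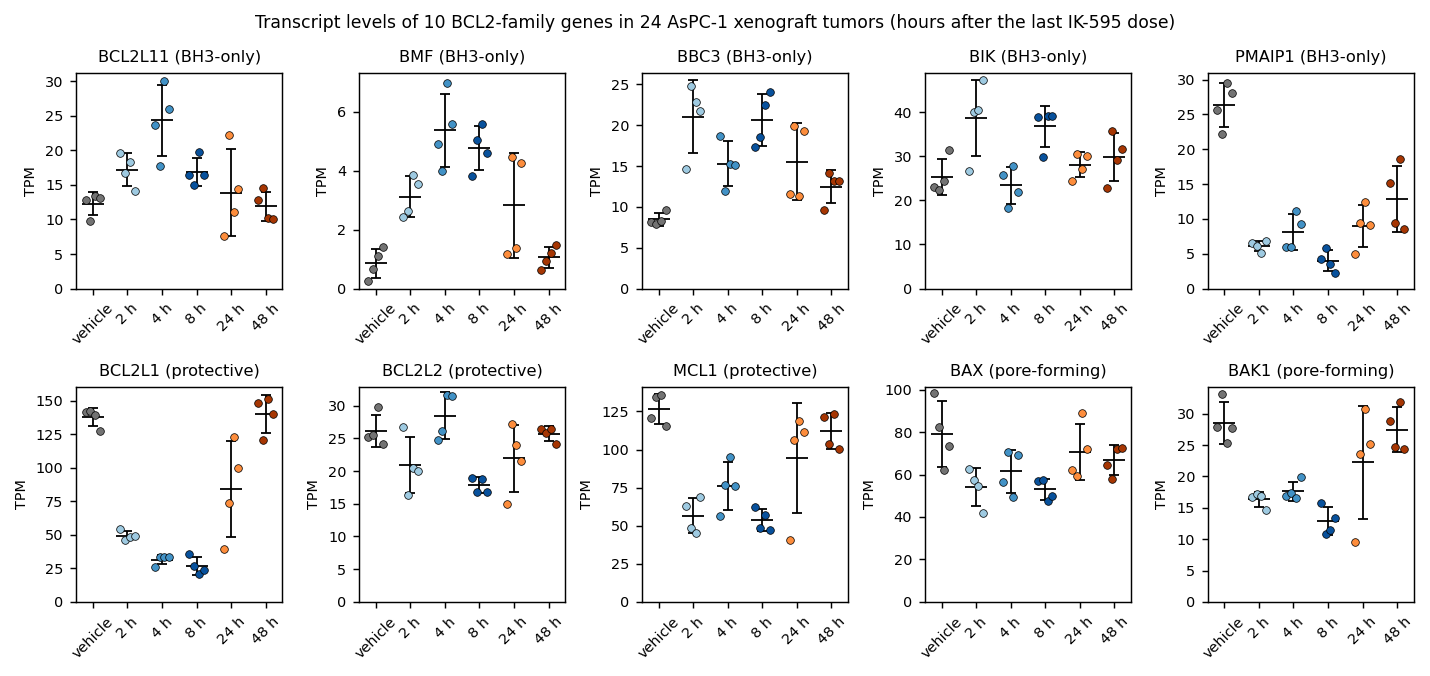
Level of each member in TPM (vertical axes, from 0) in every tumor of the vehicle group and of the 5 IK-595 times, given in hours after the last dose; points are tumors and bars are the mean ± SD (n = 4). BCL2L1 lay between 21 and 35.9 TPM at 8 h in IK-595 tumors, against 127 to 142 TPM in vehicle tumors, and BMF lay above every vehicle tumor from 2 to 8 h.

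BMF, a BH3-only protein known for its tie to dynein light chains and the cytoskeleton, had the largest rise of the members at every time from 2 to 24 h (ENSG00000104081, chr15:40087890-40108892, minus strand). BMF stood at 2.43, 2.63, 3.86 and 3.54 TPM at 2 h and 3.81, 5.05, 5.58 and 4.60 TPM at 8 h in IK-595 tumors, against 0.267, 0.649, 1.10 and 1.40 TPM in vehicle tumors. At 4 h the 4 tumors were at 4.90, 4.00, 6.96 and 5.58 TPM. Every IK-595 tumor at these 3 times was above every vehicle tumor. Log2 fold changes were 2.47 ± 0.35 at 2 h (adjusted p = 4.65e-05), 2.89 ± 0.35 at 4 h (3.61e-06) and 3.11 ± 0.35 at 8 h (6.35e-07). At 24 h the tumors split into a high and a low pair, 1.19, 4.46, 1.37 and 4.27 TPM, which overlapped vehicle, with a log2 fold change of 1.92 ± 0.34 (adjusted p = 0.000359). At 48 h BMF was at 0.616, 0.924, 1.22 and 1.47 TPM, within the vehicle range but for its highest tumor, and the change of 0.57 ± 0.35 did not pass (adjusted p = 0.354, 95% interval -0.15 to 1.28). BMF was also the least abundant member in vehicle tumors, with 20 to 64 counts per tumor there.

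BCL2L11 encodes BIM, which binds all protective proteins and can engage BAX directly (ENSG00000153094, chr2:111119378-111168447, plus strand). BCL2L11 was highest at 4 h, with 23.6, 17.7, 30.0 and 25.9 TPM in IK-595 tumors, against 12.7, 9.85, 13.5 and 13.1 TPM in vehicle tumors. At 2 h its levels were 19.7, 16.7, 18.3 and 14.1 TPM, and at 8 h 16.5, 15.0, 19.8 and 16.4 TPM. No tumor at these times overlapped the vehicle group. The rise was 0.85 ± 0.18 at 2 h (adjusted p = 0.00175), 1.05 ± 0.18 at 4 h (0.000272) and 0.91 ± 0.18 at 8 h (0.000334). On the log2(TPM + 1) scale with limma the rises at 2 h (0.45, adjusted p = 0.142) and 8 h (0.43, adjusted p = 0.126) did not pass. Levels at 24 h spread from 7.67 to 22.3 TPM, on both sides of the vehicle group (0.38 ± 0.18, adjusted p = 0.115), and at 48 h they were 10.1 to 14.5 TPM (0.10 ± 0.18, adjusted p = 0.818).

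BBC3, which encodes the p53 target PUMA, was the BH3-only member called higher at all 5 times (ENSG00000105327, chr19:47220822-47232766, minus strand). At 2 h BBC3 was at 14.6, 24.9, 22.9 and 21.7 TPM in IK-595 tumors, against 8.15, 7.92, 8.26 and 9.62 TPM in vehicle tumors. Its levels were 18.7, 11.9, 15.3 and 15.2 TPM at 4 h and 17.4, 18.6, 22.5 and 24.0 TPM at 8 h. The group mean at 4 h (15.3 ± 2.8 TPM) lay below those at 2 h (21 ± 4.4) and 8 h (20.6 ± 3.2), with ranges that overlapped. The log2 fold change over vehicle was 1.38 ± 0.18 at 2 h (adjusted p = 1.66e-05), 0.73 ± 0.18 at 4 h (0.0057) and 1.53 ± 0.18 at 8 h (7.7e-07). Tested directly, BBC3 was lower at 4 h than at 2 h (-0.66 ± 0.17, adjusted p = 0.0157) and higher at 8 h than at 4 h (0.80 ± 0.17, adjusted p = 0.00307). The first of these was lost without 2 h tumor 2 or 3 or 4 h tumor 2 or 4 (adjusted p up to 0.065), and neither passed on the log2(TPM + 1) scale (adjusted p = 0.137 and 0.119).

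BIK, an endoplasmic reticulum BH3-only protein, was likewise higher at 2 and 8 h than at 4 h (ENSG00000100290, chr22:43110748-43129712, plus strand). BIK was at 26.6, 40.1, 40.5 and 47.3 TPM at 2 h and 38.9, 29.8, 39.2 and 39.0 TPM at 8 h in IK-595 tumors, against 23.1, 22.4, 24.3 and 31.3 TPM in vehicle tumors. At 4 h its levels of 25.6, 18.2, 27.7 and 22 TPM overlapped the vehicle range. BIK rose at 2 h (0.83 ± 0.19, adjusted p = 0.00352) and 8 h (0.81 ± 0.19, adjusted p = 0.00187), each with 1 tumor inside the vehicle range. The value at 4 h was -0.15 ± 0.19 (adjusted p = 0.668, 95% interval -0.55 to 0.26). Between times BIK was lower at 4 h than at 2 h (-0.97 ± 0.19, adjusted p = 0.00332) and higher at 8 h than at 4 h (0.95 ± 0.20, adjusted p = 0.00222). The second 4 h tumor, with the high fibroblast and pericyte sum, was the lowest of its group for BIK, BBC3 and BCL2L11, and both BIK calls between times held without it. At 24 and 48 h the log2 fold changes of 0.28 ± 0.19 and 0.34 ± 0.19 did not pass (adjusted p = 0.29 and 0.319).

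PMAIP1 was the BH3-only gene that fell (ENSG00000141682, chr18:59899948-59904306, plus strand). Its protein NOXA binds chiefly MCL1 and speeds the turnover of that protein. PMAIP1 was at 6.49, 6.05, 5.08 and 6.83 TPM at 2 h and 4.30, 5.86, 3.52 and 2.27 TPM at 8 h in IK-595 tumors, against 25.6, 22.2, 29.5 and 28 TPM in vehicle tumors. The levels were 5.91, 5.93, 11.2 and 9.29 TPM at 4 h, 5.01, 9.37, 12.5 and 9.09 TPM at 24 h and 15.1, 9.39, 18.5 and 8.60 TPM at 48 h. Every IK-595 tumor at every time was below every vehicle tumor. PMAIP1 changed by -1.72 ± 0.24 at 2 h (adjusted p = 4.4e-05), -1.75 ± 0.24 at 4 h (1.88e-05) and -2.21 ± 0.25 at 8 h (4.96e-07). It remained lower by -1.34 ± 0.24 at 24 h (adjusted p = 0.000324) and -0.92 ± 0.23 at 48 h (adjusted p = 0.0134), and the 48 h call was lost without 48 h tumor 2 or 4 (adjusted p up to 0.0671).

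BCL2L1, which encodes the protective BCL-XL, was the most abundant member in vehicle tumors and had the largest fall of the protective genes (ENSG00000171552, chr20:31664452-31723989, minus strand). At 2 h BCL2L1 was at 54.1, 46.5, 48.2 and 49.0 TPM in IK-595 tumors, against 141, 142, 139.6 and 127 TPM in vehicle tumors. It was at 26.3, 33.1, 33.4 and 33.4 TPM at 4 h and 35.9, 26.5, 21 and 23.9 TPM at 8 h. The early groups were far below vehicle, and the 4 h group also lay wholly below the 2 h group, as did 5.39% of all genes. BCL2L1 changed by -1.30 ± 0.17 at 2 h (adjusted p = 1.91e-05), -2.17 ± 0.17 at 4 h (9.93e-09) and -2.13 ± 0.17 at 8 h (5.89e-09). The step between 2 and 4 h was -0.86 ± 0.17 (adjusted p = 0.00269), and did not pass on the log2(TPM + 1) scale (-0.64, adjusted p = 0.0639). At 24 h the tumors ranged widely, 39.7, 74.0, 123 and 99.7 TPM, all below vehicle (-0.66 ± 0.17, adjusted p = 0.00531), a call lost without the 6 tumors left out together. At 48 h they were at 148, 120.5, 151 and 139.9 TPM, around the vehicle levels, with a change of 0.09 ± 0.16 (adjusted p = 0.815, 95% interval -0.25 to 0.43).

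MCL1, a short-lived protective protein, fell to a smaller degree (ENSG00000143384, chr1:150574551-150579738, minus strand). At 2 h MCL1 was at 63.2, 48.7, 45.6 and 69.0 TPM in IK-595 tumors, against 121, 134, 136 and 115 TPM in vehicle tumors. Levels at 4 h were 56.3, 76.5, 95.1 and 76.0 TPM and at 8 h 62.2, 48.4, 56.8 and 47.5 TPM, so that no early tumor overlapped vehicle. MCL1 changed by -0.93 ± 0.17 at 2 h (adjusted p = 0.000516), -0.76 ± 0.17 at 4 h (0.00288) and -0.95 ± 0.17 at 8 h (0.000115), and the 4 h call did not pass on the log2(TPM + 1) scale (-0.75, adjusted p = 0.0539). At 24 h 1 tumor was at 40.9 TPM and the others at 106, 119 and 112 TPM (-0.35 ± 0.17, adjusted p = 0.124). At 48 h MCL1 was at 121, 104, 123 and 100.5 TPM (-0.11 ± 0.17, adjusted p = 0.769).

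BCL2L2, the gene of the protective BCL-w, had the smallest changes of the protective genes (ENSG00000129473, chr14:23298790-23311759, plus strand). It was at 18.9, 16.8, 18.8 and 16.8 TPM at 8 h in IK-595 tumors, against 25.2, 25.6, 29.7 and 24.1 TPM in vehicle tumors. These groups did not overlap, and BCL2L2 was called lower (-0.30 ± 0.11, adjusted p = 0.0264). That call ended with upper-quartile scaling (-0.16, adjusted p = 0.197), with only the groups compared (adjusted p = 0.058), and on removing any of vehicle tumors 1 and 3 and 8 h tumors 1, 2 and 4 (adjusted p up to 0.0944). At 2, 4, 24 and 48 h the values were -0.19 ± 0.11, -0.06 ± 0.11, -0.28 ± 0.11 and 0.06 ± 0.11, and none passed (adjusted p from 0.0581 to 0.814). The 24 h value did pass with RLE scaling (-0.29, adjusted p = 0.0457), with DESeq2 (-0.29, adjusted p = 0.0244) and on leaving out 24 h tumor 2 or 3. The gene overlaps a readthrough transcript, BCL2L2-PABPN1, at 3.37 ± 1.92 TPM at 4 h in IK-595 tumors and 1.42 ± 0.31 TPM in vehicle tumors (SD, n = 4 each), and the counting could split reads between them.

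Of the pore-forming genes, BAK1 fell and BAX did not pass at any time. BAK1, an effector that sits in the outer mitochondrial membrane, was at 16.8, 17.2, 16.9 and 14.6 TPM at 2 h and 15.8, 10.8, 11.4 and 13.3 TPM at 8 h in IK-595 tumors, against 27.8, 33.1, 25.3 and 27.7 TPM in vehicle tumors (ENSG00000030110, chr6:33572547-33580293, minus strand). At 4 h BAK1 ranged from 16.5 to 19.9 TPM, and no early group overlapped vehicle. BAK1 changed by -0.60 ± 0.17 at 2 h (adjusted p = 0.0111), -0.74 ± 0.17 at 4 h (0.00363) and -0.89 ± 0.17 at 8 h (0.000214). The 2 h call was lost without vehicle tumor 2 (adjusted p = 0.0504) and the 4 h call on the log2(TPM + 1) scale (adjusted p = 0.0708). At 24 h (-0.29 ± 0.17) and 48 h (0.03 ± 0.17) BAK1 did not pass (adjusted p = 0.197 and 0.952). Near-identical pseudogene copies of BAK1 were at a mean of 0.199 TPM (BAK1P1) and 0 (BAK1P2).

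BAX, the effector that moves from the cytosol to mitochondria, ranged from 41.9 to 62.7 TPM at 2 h and from 47.7 to 57.4 TPM at 8 h in IK-595 tumors, against 61.9 to 98.6 TPM in vehicle tumors (ENSG00000087088, chr19:48954815-48961798, plus strand). Its log2 fold changes on scaled counts from 2 to 48 h were -0.28 ± 0.15, -0.38 ± 0.15, -0.26 ± 0.15, 0.05 ± 0.15 and -0.15 ± 0.15 (adjusted p from 0.0907 to 0.816). On the log2(TPM + 1) scale BAX was called lower at 2 h (-0.53, adjusted p = 0.0245) and 8 h (-0.55, adjusted p = 0.0102), a setting that changes the scale and the test together. The 95% interval of the change at 8 h on scaled counts was -0.57 to 0.05.

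**Figure D2:**
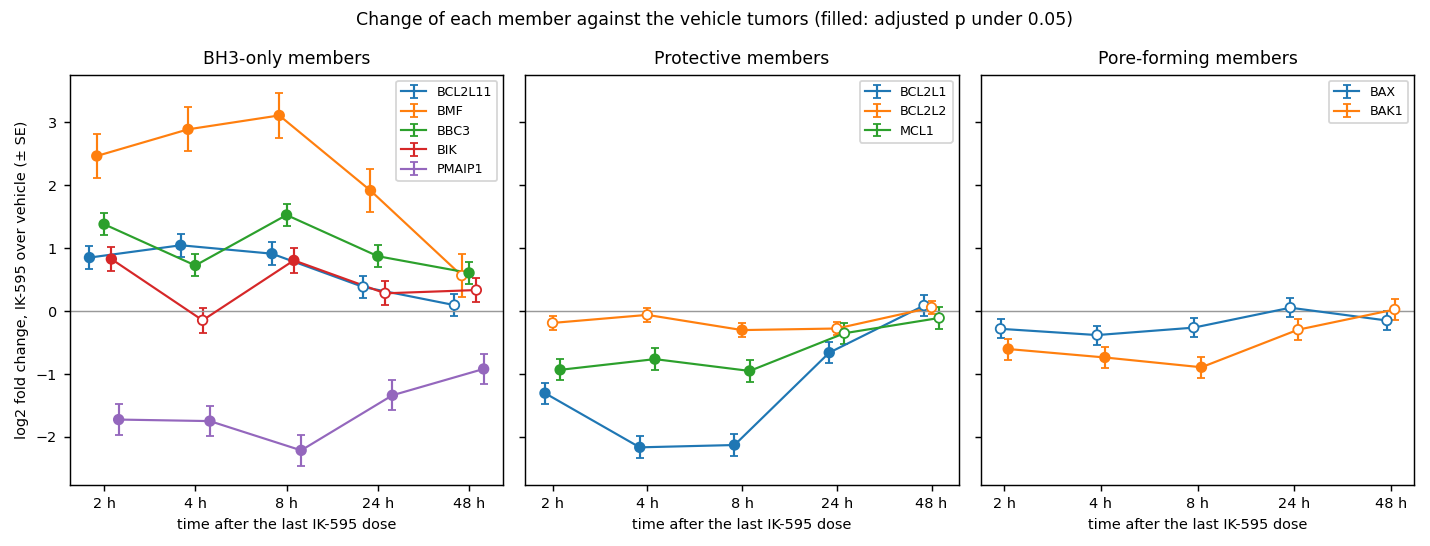
Log2 fold change of each member, IK-595 over vehicle (vertical axis, edgeR on TMM-scaled counts), at 5 times after the last dose (horizontal axis, hours, equally spaced), in panels by role; bars are the standard error, and filled points have an adjusted p under 0.05. BMF, BCL2L11 and BBC3 lie above 0 from 2 to 24 h, PMAIP1 lies below 0 throughout, and BCL2L1 is lowest at 4 and 8 h, and both BCL2L1 and MCL1 are near 0 at 48 h.

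The order of levels within the family differed between groups. In IK-595 tumors at 8 h MCL1 (53.7 ± 7.0 TPM), BAX (53 ± 5.0), BIK (36.7 ± 4.6) and BCL2L1 (26.8 ± 6.5) led, and PMAIP1 (3.99 ± 1.5) was last, below BMF (4.76 ± 0.75). In vehicle tumors BCL2L1 (138 ± 6.9 TPM) and MCL1 (127 ± 10) led, followed by BAX (79.0 ± 15.5), and BMF was last (0.853 ± 0.498; SD, n = 4 throughout). At 8 h the ranges were apart only between BAX and BIK and between BAK1 and BMF, while in vehicle tumors BCL2L1 and MCL1 overlapped, as did BAK1, PMAIP1, BCL2L2 and BIK in turn.

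Taken by role, the BH3-only sum differed little from vehicle and the protective sum widely. Summed TPM of the 5 BH3-only genes was 83.0 ± 7.1 at 8 h in IK-595 tumors and 73.2 ± 8.8 in vehicle tumors (SD, n = 4 each). Summed TPM of the 3 protective genes was 98.4 ± 12.9 at 8 h in IK-595 tumors and 290.4 ± 17.4 in vehicle tumors. The rises of BMF, BCL2L11, BBC3 and BIK and the fall of PMAIP1 lie within the first sum. BH3-only TPM per 100 protective TPM ranged from 48.5 to 81.1 at 2 h, 42.6 to 73.4 at 4 h, 69.1 to 97.8 at 8 h, 23.9 to 52.1 at 24 h and 20.6 to 29.8 at 48 h in IK-595 tumors, against 20.9 to 31.3 in vehicle tumors. The early groups were wholly above vehicle, the 24 h group had 1 tumor inside the vehicle range and 3 above it, and the 48 h group overlapped it. These sums describe genes chosen with earlier results known and carry no test.

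Single pairs of binding partners differed in direction. BCL2L11 TPM per 100 BCL2L1 TPM was 77.7 ± 17.1 at 4 h and 66.3 ± 20.8 at 8 h in IK-595 tumors and 8.96 ± 1.45 in vehicle tumors (SD, n = 4 each). PMAIP1 TPM per 100 MCL1 TPM went the other way, at 7.50 ± 3.21 at 8 h and 11.3 ± 3.1 at 48 h in IK-595 tumors and 20.9 ± 3.2 in vehicle tumors. The first ratio at 48 h, 8.66 ± 2.39, was near that of vehicle, whereas the second stayed lower in each 48 h tumor (8.55 to 15.0) than in any vehicle tumor (16.5 to 24.3).

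**Figure D3:**
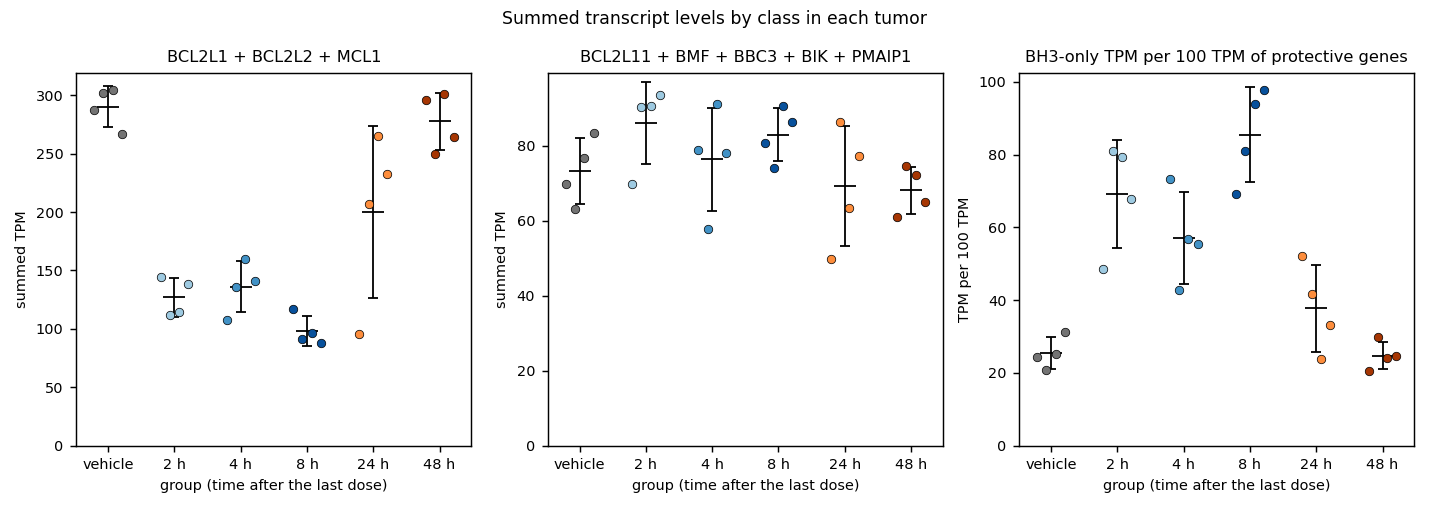
Summed TPM of the 3 protective genes (left), summed TPM of the 5 BH3-only genes (middle) and BH3-only TPM per 100 protective TPM (right) in each tumor of the vehicle group and 5 IK-595 times; points are tumors and bars are the mean ± SD (n = 4). The protective sum lies at 88.2 to 117 TPM at 8 h in IK-595 tumors, against 267 to 305 TPM in vehicle tumors, and the ratio at 48 h overlaps vehicle.

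Over the interval after dosing, 9 of the 10 members differed among the 5 IK-595 times by an F test in edgeR, as did 37.4% of all genes. BCL2L1 had the smallest adjusted p (1.48e-09) and BAX did not pass (0.132). At 4 h 3 members, BBC3, BIK and BCL2L1, were lower than at 2 h (9% of all genes were) and none higher (6.89%). At 8 h 2 members, BBC3 and BIK, were higher than at 4 h (11.6%) and none lower (15.5%). On the log2(TPM + 1) scale PMAIP1 (-0.87, adjusted p = 0.0198) and BCL2L2 (-0.64, adjusted p = 0.00678) were called lower at 8 h than at 4 h. PMAIP1 was also called lower in that step without 8 h tumor 2. At 48 h 5 members were higher than at 8 h (17.1%) and 3 lower (11.3%). BCL2L1 was higher at 48 h than at 8 h by 2.22 ± 0.17 (adjusted p = 7.71e-09), PMAIP1 by 1.29 ± 0.24 (0.000434), BAK1 by 0.92 ± 0.17 (0.000361), MCL1 by 0.84 ± 0.17 (0.000808) and BCL2L2 by 0.36 ± 0.11 (0.0153). BMF was lower at 48 h than at 8 h (-2.55 ± 0.34, adjusted p = 1.2e-05), as were BBC3 (-0.92 ± 0.17, 0.00046) and BCL2L11 (-0.82 ± 0.18, 0.0018). On the log2(TPM + 1) scale the BCL2L11 value did not pass (-0.48, adjusted p = 0.122), nor did that of BCL2L2 with upper-quartile scaling (0.23, adjusted p = 0.0875). BIK, at -0.47 (adjusted p = 0.0691), was called lower with upper-quartile scaling (adjusted p = 0.0294), with only the groups compared (0.0368), with DESeq2 (0.0413) and without the 6 tumors left out together (0.0149). The F test of BCL2L2 did not pass without those 6 tumors (adjusted p = 0.0853).

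The 24 h tumors varied widely. Against 8 h, 4 members rose (5.3% of all genes did) and 2 fell (1.58%) at 24 h. BCL2L1 rose by 1.47 ± 0.17 (adjusted p = 5.93e-06), a call kept without any 1 tumor. PMAIP1 (0.88 ± 0.24), MCL1 (0.60 ± 0.17) and BAK1 (0.60 ± 0.17) were called higher and BMF (-1.19 ± 0.33) and BBC3 (-0.66 ± 0.17) lower (adjusted p from 0.0221 to 0.0323), but each call was lost on leaving out any of 3 to 6 of the 8 tumors (adjusted p up to 0.216). All of these 5 calls were also lost when only the 8 and 24 h groups were fitted (adjusted p from 0.0817 to 0.21). Without the 6 tumors left out together BMF was lost (adjusted p = 0.144) and BIK was called lower (-0.66, adjusted p = 0.0278). Leaving out 24 h tumor 3, the 24 h tumor with the highest BCL2L1, MCL1 and BAK1, raised the members called against vehicle at 24 h from 4 to 7. The first 24 h tumor was the lowest of all 24 tumors for BCL2L11 (7.67 TPM), MCL1 (40.9 TPM), BAK1 (9.51 TPM) and BCL2L2 (15.0 TPM). BMF, BBC3, BCL2L11 and BIK were each higher in 24 h tumors 2 and 4 than in 24 h tumors 1 and 3. BBC3 was at 11.5, 19.9, 11.4 and 19.3 TPM there, all above vehicle (0.87 ± 0.18, adjusted p = 0.000938). At 48 h against 24 h 1 member, BCL2L1, rose (0.75 ± 0.17, adjusted p = 0.0129; 2.47% of all genes rose) and 1, BMF, fell (-1.35 ± 0.34, adjusted p = 0.0244; 1.6% fell). Both calls were lost when only those groups were fitted (adjusted p = 0.144 and 0.0712) and without the 6 tumors left out together (adjusted p = 0.177 and 0.18). The BCL2L1 call was also lost without 48 h tumor 3 (adjusted p = 0.0557), and the BMF call without 24 h tumor 2 or 4 or 48 h tumor 1 or 3 (adjusted p up to 0.0853).

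At 48 h, the end of the dosing interval, 2 members still differed from vehicle. BBC3 was at 9.56, 14.1, 13.1 and 13.1 TPM in IK-595 tumors, with 1 tumor inside the vehicle range of 7.92 to 9.62 TPM (0.61 ± 0.17, adjusted p = 0.0272). Removing any of vehicle tumors 1 and 2 and 48 h tumors 2, 3 and 4 ended the call (adjusted p up to 0.0899), as did a fit on the log2(TPM + 1) scale (adjusted p = 0.156). PMAIP1, described above, was the other.

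Of 6 lists of related genes, each count below stands beside the shares of all genes tested given above, such as 20.6% higher and 23.7% lower at 8 h, and describes the list only. Of the rest of the family, 11 of 13 listed genes could be tested. Of these 2 rose and 1 fell at 2 h, 1 and 1 at 4 h, 2 and 4 at 8 h, 2 and 3 at 24 h, and 1 and 0 at 48 h. Their median log2 fold change ran from -0.35 at 8 h to -0.03 at 2 h. BCL2L15, a little-studied member, was at 16.8 ± 3.2 TPM at 8 h in IK-595 tumors and 8.07 ± 2.79 TPM in vehicle tumors (1.21 ± 0.18, adjusted p = 1.97e-05). BNIP3L, which encodes the mitophagy receptor NIX, was at 45.7 ± 4.8 TPM at 8 h in IK-595 tumors and 128 ± 72.1 TPM in vehicle tumors (-1.18 ± 0.31, adjusted p = 0.00445), and fell at 4 and 24 h as well. BOK, a BAX-like member, fell at 8 h (-0.35 ± 0.13, adjusted p = 0.0307). BCL2L13, another mitochondrial member, fell at 8 h (-0.62 ± 0.15, adjusted p = 0.00236) and 24 h (-0.50 ± 0.15, adjusted p = 0.0191). BCL2 itself was at most 0.307 TPM on average in any group, and no change in it passed. The most abundant gene that did not pass at any time was BAD, at 64.9 ± 3.6 TPM at 8 h in IK-595 tumors and 61.5 ± 4.7 TPM in vehicle tumors.

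Downstream of the pore, 17 caspases, apoptosome genes and inhibitors of apoptosis were tested. Of these 2 rose and 3 fell at 2 h, 4 and 1 at 4 h, 3 and 5 at 8 h, 4 and 0 at 24 h, and 2 and 1 at 48 h, with medians between -0.19 and 0.02. XIAP, a direct caspase inhibitor that fell at 4 and 8 h, was at 22.1 ± 3.9 TPM at 8 h in IK-595 tumors and 36.7 ± 3.0 TPM in vehicle tumors (-0.41 ± 0.12, adjusted p = 0.00703). BIRC3, a relative of XIAP, rose by 1.14 ± 0.19 at 8 h (adjusted p = 4.72e-05). BIRC7, another inhibitor of apoptosis, was at 25.3 ± 10.8 TPM at 8 h in IK-595 tumors and 4.88 ± 0.27 TPM in vehicle tumors (2.66 ± 0.36, adjusted p = 7.03e-06), and it rose at all 5 times. CASP10, an initiator caspase, also rose at all 5 times, with 1.95 ± 0.27 at 8 h (adjusted p = 7.83e-06). CYCS, the gene of cytochrome c, fell at 2 h (-0.43 ± 0.16, adjusted p = 0.0486) and 8 h (-0.78 ± 0.16, adjusted p = 0.000448). DIABLO, which encodes an antagonist of inhibitors of apoptosis, was the most abundant that did not pass at any time, with a log2 fold change of -0.14 ± 0.10 at 8 h (adjusted p = 0.265).

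Among 9 genes of the death receptor route, 2 rose and 4 fell at 2 h, 1 and 3 at 4 h, 2 and 4 at 8 h, 1 and 2 at 24 h, and none changed at 48 h. Both TRAIL receptor genes fell at 2, 4, 8 and 24 h. TNFRSF10B was at 49.4 ± 7.1 TPM at 4 h in IK-595 tumors and 115 ± 4.9 TPM in vehicle tumors (-1.26 ± 0.12, adjusted p = 7.99e-08), and TNFRSF10A changed by -1.54 ± 0.16 at 4 h (adjusted p = 4.07e-07). Their ligand TNFSF10 rose over the same times, with 1.70 ± 0.35 at 4 h (adjusted p = 0.0018). FAS fell at 2 h (-0.79 ± 0.16, adjusted p = 0.00127) and 8 h (-0.93 ± 0.16, adjusted p = 8.79e-05), as did FADD, its adaptor. TNFRSF1A, a receptor of TNF, fell at 4 h (-0.45 ± 0.14, adjusted p = 0.0316). CFLAR, the inhibitor of caspase-8 activation, was the most abundant that did not pass at any time, with 0.20 ± 0.13 at 8 h (adjusted p = 0.244).

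Of 14 regulators known to act on BH3-only genes, none rose and 2 fell at 2 h, none and 5 at 4 h, 1 and 5 at 8 h, none and 2 at 24 h, and 1 and none at 48 h. MYC was at 3.30 ± 1.15 TPM at 8 h in IK-595 tumors and 42.1 ± 4.1 TPM in vehicle tumors (-3.58 ± 0.28, adjusted p = 3.95e-09). FOXO1, whose protein can bind the FOXO letters, fell at 2, 4 and 8 h (-1.18 ± 0.18 at 8 h, adjusted p = 2.06e-05). DDIT3 and ATF4 of the integrated stress response fell at 4 h (-1.10 ± 0.23, adjusted p = 0.00194, and -0.64 ± 0.13, adjusted p = 0.000913), and so did RELA of the NF-kB pathway (-0.67 ± 0.16, adjusted p = 0.00584). JUN rose at 48 h (0.78 ± 0.21, adjusted p = 0.0195). STAT3, the most abundant that did not pass at any time, was at 26.3 ± 2.4 TPM in vehicle tumors (0.27 ± 0.19 at 8 h, adjusted p = 0.25). Of 14 p53 target genes other than BBC3 and PMAIP1, 2 rose and 4 fell at 2 h, 1 and 5 at 4 h, 2 and 5 at 8 h, 1 and 3 at 24 h, and 1 and 1 at 48 h. PLK3 (-2.47 ± 0.23), CDKN1A (-2.08 ± 0.26) and AEN (-1.92 ± 0.26) fell at 4 h (adjusted p up to 1.82e-05), as did GDF15 (-1.49 ± 0.32, adjusted p = 0.00238). SESN2 fell at 24 h (-0.73 ± 0.20, adjusted p = 0.00893), while TP53I3 rose at 8 h (0.69 ± 0.19, adjusted p = 0.00535). XPC was the most abundant that did not pass at any time.

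Of 8 genes for anchors and turnover of family proteins, 1 rose and none fell at each time. FBXW7, a ubiquitin ligase subunit that targets MCL1, rose at 2 h (0.52 ± 0.14, adjusted p = 0.00971), 8 h (0.58 ± 0.14, adjusted p = 0.00229) and 24 h (0.45 ± 0.14, adjusted p = 0.0213). BTRC, a subunit of a ligase that targets BIM, rose at 4 h (0.35 ± 0.10, adjusted p = 0.0177) and 48 h (0.36 ± 0.10, adjusted p = 0.0233). DYNLL1, the dynein light chain that tethers BIM, was the most abundant, at 687.7 TPM on average in vehicle tumors, and did not pass at any time.

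**Figure D4:**
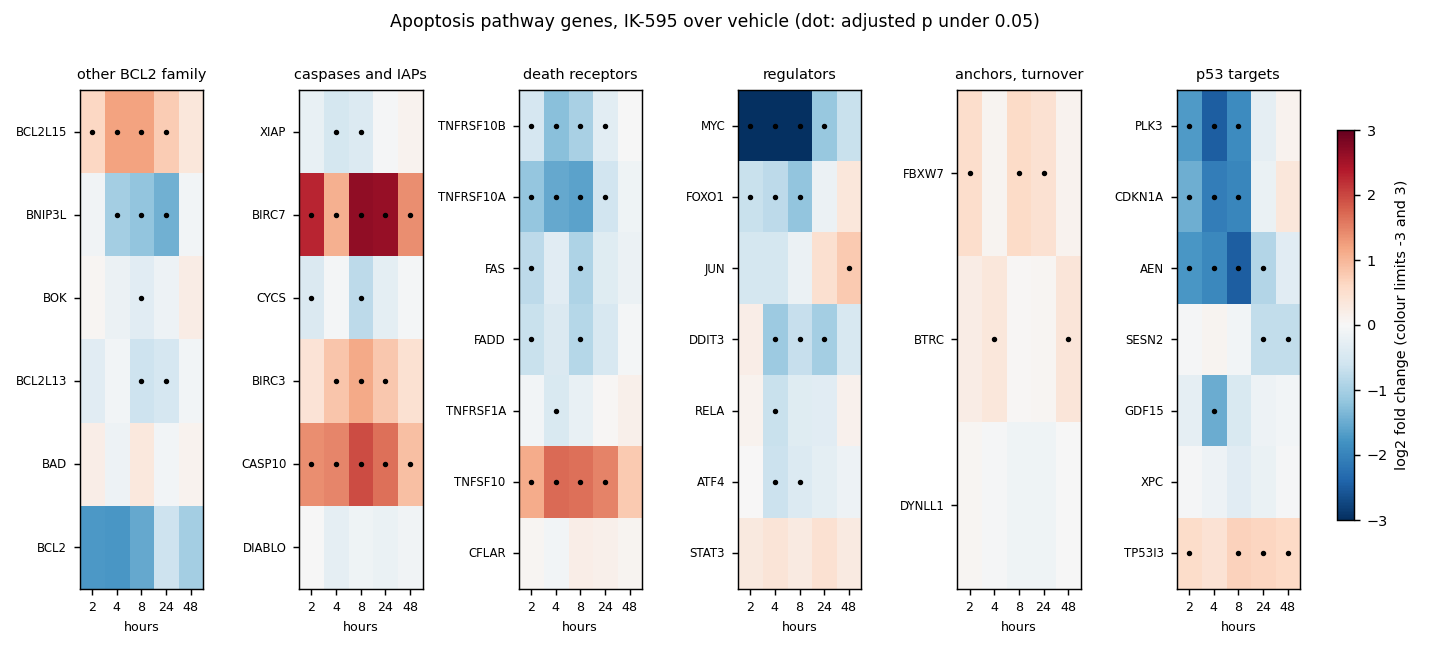
Log2 fold change, IK-595 over vehicle (color, limits -3 and 3), of the genes named from 6 apoptosis lists (vertical axis) at 2, 4, 8, 24 and 48 h after the last dose (horizontal axes); dots mark an adjusted p under 0.05. BIRC7 and CASP10 are above 0 at every time with a dot, MYC has the lowest value, at 8 h, and TNFRSF10A and TNFRSF10B have dots below 0 from 2 to 24 h.

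Genes whose 6 group means ran most like those of a member were found by the root mean square difference of centered log2 CPM among 10429 other genes (10430 for BMF) with a mean log2 CPM of at least 3. For BMF these were PRODH (0.31), AQP7 (0.40) and TP53INP1 (0.44), and for BCL2L11 FBXO32 (0.08), KLHL24 (0.09) and FBLN1 (0.11). For BBC3 they were PROC (0.04) and EGFL8 (0.06), besides a gene without a symbol. PMAIP1 was nearest to HMGA2 (0.15) and BCL10 (0.18). BCL2L1 was nearest to PHLDA2 (0.10), ID1 (0.12) and DUSP7 (0.12), and MCL1 to HTR1D (0.07), DUSP1 (0.07) and KBTBD2 (0.08). Each group mean came from 4 tumors, and likeness over 6 points is a description.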

How the data were processed

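Per the labels, polyA RNA of 24 tumors was made into libraries with NEBNext Ultra II and sequenced as paired reads on a NovaSeq. The authors deposited estimated counts per gene and TPM values, and the submitters' processing notes list Salmon 0.14.1, FastQC 0.12.1, bcl2fastq 2.17 and the build GRCh38.p13. The sources used here give no strand setting, annotation release or treatment of mouse reads, so reads of antisense partners or of similar mouse genes may count toward a gene.

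Sample titles set the groups, because the time label of IK-595 samples speaks of a vehicle dose. Replicates are separate animals per the labels. Symbols came by gene ID from a table of gene names (60089 of 60230 matched), gene coordinates from GENCODE release 29 on GRCh38, and promoters from RefSeq, matched by symbol for 7 of the 10 members. Estimated counts were rounded (59.6% of values above 0 were whole to within 0.0015). filterByExpr kept 18242 genes with 99.9% of counts. With edgeR 4.0.16 (R 4.3.3), TMM scaling and a robust quasi-likelihood fit were run over all 24 tumors, with Benjamini-Hochberg adjustment over all genes within each of 10 comparisons and for an F test over the 5 IK-595 times. Every adjusted p is from edgeR unless DESeq2, limma 3.58.1 or the log2(TPM + 1) scale is named. Log2 CPM had 2 as the prior count. The pipeline was tested on simulated counts in which a small set of genes changed in the 8 h group only. That setting is simpler than these data, so it does not show how the pipeline performs on them.

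The members, the lists of related genes and the markers were chosen with earlier results of these data known. All members are named at every time. From each related list the text names genes that passed at 1 or more times, those with the smallest p of the F test first, plus the most abundant gene that failed to pass. TNFSF10, CASP10 and TP53I3 passed but stand further down that order, and were named after their values were seen. A few genes that the rules pick are not reported here. Alternatives were RLE and upper-quartile scaling, no low-count filter, only the groups compared, a replicate block, limma on log2(TPM + 1) or log2(TPM + 0.1) with and without a filter, DESeq2 1.42.0, and leaving out each tumor or, chosen after seeing the data, 3 or 6 tumors together.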

Additional observations from a re-analysis of the deposited data

Results flagged for a closer look

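In 3 of 60 sets of 4 tumors (10 members in 6 groups), 1 tumor lay far from the others of its group by Dixon's 95% criterion, which chance alone meets in about 5% of sets. BIK in 8 h tumor 2 was at 29.8 TPM, against 38.9 to 39.2 TPM in the other 8 h tumors. BCL2L1 in 4 h tumor 1 was at 26.3 TPM, against 33.1 to 33.4 TPM in the other 4 h tumors. MCL1 in 24 h tumor 1 was at 40.9 TPM, against 106 to 119 TPM in the other 24 h tumors, and that tumor also had the highest mitochondrial share of its group (31.4%, against 12.1 to 14.4%). The part of that share in the MCL1 level was not tested.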

How the results depend on the processing

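Leaving out 1 tumor at a time gave 4 to 7 members called for 24 h against vehicle, 0 to 2 for 48 h against vehicle, 1 to 6 for 24 h against 8 h and 0 to 2 for 48 h against 24 h. Over all genes it gave 963 to 1858 calls for 48 h against vehicle, 1003 to 4240 for 4 h against 2 h, 3041 to 5172 for 8 h against 4 h, 629 to 2673 for 24 h against 8 h and 298 to 1362 for 48 h against 24 h. Members whose log2 fold change lay near 0 changed sign: BIK at 4 h (-0.22 to 0.00274), BCL2L2 at 4 h (-0.0700 to 0.0143), BAX at 24 h (-0.0577 to 0.16) and BAK1 at 48 h (-0.0588 to 0.12). Signs of such values also turned on log2(TPM + 1), log2(TPM + 0.1) and unfiltered log2(TPM + 1): BCL2L2 at 4 h (0.11, 0.12, 0.11), BAX at 24 h (-0.16 in each), BCL2L11 at 48 h (-0.0478, -0.0518, -0.0478), BCL2L2 at 48 h (-0.0194, -0.0199, -0.0194) and BAK1 at 48 h (-0.0534, -0.0552, -0.0534). BAX at 24 h was -0.0143 with no low-count filter and -0.0484 without 2 h tumor 1, 4 h tumor 2 and 24 h tumor 1, an alternative added after seeing the data. Without these 3 and 4 h tumor 4, 8 h tumor 2 and 24 h tumor 4, also added then, BIK at 4 h was 0.0535, 0 members were called for 48 h against 24 h, and the genes called were 2399 for 24 h against vehicle, 1507 for 4 h against 2 h, 2330 for 8 h against 4 h, 2683 for 24 h against 8 h and 129 for 48 h against 24 h. On the same TPM settings the members called were 1, 1 and 0 for 48 h against vehicle (1 with no low-count filter), 1, 1 and 1 for 4 h against 2 h, 2, 2 and 1 for 24 h against 8 h, and 0, 0 and 0 for 48 h against 24 h. All genes called were 1629, 1611 and 1278 for 4 h against vehicle, 1030, 1013 and 727 for 48 h against vehicle, 817, 828 and 582 for 24 h against 8 h, and 202, 174 and 98 for 48 h against 24 h. Unfiltered TPM gave 2831 genes for 2 h and 2530 for 24 h against vehicle, 836 for 4 h against 2 h, 2908 for 48 h against 8 h and 3325 for the F test. No low-count filter gave 1763 genes for 4 h against 2 h. With only the groups compared, 1 member and 355 genes were called for 24 h against 8 h, and 0 members and 148 genes for 48 h against 24 h. DESeq2 called 1522 genes for 48 h against 24 h, and without the 3 tumors 3376 were called for 24 h against 8 h. The difference from vehicle in mean log2 level, BH3-only minus protective genes, was 1.28 at 2 h, 1.26 at 4 h and 1.63 at 8 h on log2(TPM + 1), and 1.56, 1.56 and 1.95 on log2 CPM. The cause of these differences was not tested.

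Tumors of different groups that carry 1 number form 60 pairs, of which 20 had deviations that correlated above 0.1 (mean r -0.013, from -0.461 to 0.503). Of 24 tumors, 8 had their best match in a tumor of their own number. Correlations of pairs with different numbers were not set beside these, so whether the numbers pair the tumors was not settled. With the replicate number as a block, 8, 7, 9, 4 and 2 members were called against vehicle at 2, 4, 8, 24 and 48 h, the same counts as without it, with 5 for 24 h against 8 h, where BAK1 was lost (adjusted p = 0.0571), the 1 member call it changed. At 10.52 M to 20.64 M counts, BMF had 20 to 64 counts in vehicle tumors, which limits its precision, as did 4 tumors per group for all members.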
